A study of Mus musculus with 6 samples.

Results

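Axon guidance ligands and receptors were followed in whole mouse embryos from diabetic and normal pregnancies. The members were the ephrins and their Eph receptors, the semaphorins of classes 3 to 7 and their plexin receptors, the netrins 1, 3, 4 and 5 with their receptors DCC and UNC5, and the Slits with their Robo receptors. They were taken by gene symbol, and a probe set, a group of short probes that reads 1 transcript, counted only if the platform's annotation gave it that symbol alone. This gave 142 of the 45101 probe sets on the array, for 65 of 18194 genes. FVB embryos of embryonic day 10.5 made up 3 control and 3 diabetes-exposed pools, each hybridized to 1 Affymetrix Mouse 430 2.0 array. A pool held RNA from 3 embryos of 3 different pregnancies, so that each group represented 9 embryos. The diabetic dams, FVB females of 7 to 9 weeks, had received 2 injections of 100 mg streptozotocin per kg body weight, which destroys the insulin-producing beta cells, and had blood glucose above 250 mg/dl before mating. The control dams were not diabetic, and no engineered allele was named for either group. Streptozotocin and diabetes went together in this model, and their effects cannot be told apart here. The pools came from whole embryos, in which fewer cells of a type and less RNA per cell cannot be told apart.

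Guidance cues are proteins that growing axons and migrating cells read as attraction or repulsion. Ephrins sit on the surface of one cell and bind Eph receptor tyrosine kinases on the next, whereas netrins, Slits and class 3 semaphorins are secreted and act over a distance. In the mid-gestation embryo the same cues also steer neural crest cells, set the borders between somites and hindbrain segments, and guide arteries and veins.

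All arrays had been scaled by the authors to a common mean, and their median signals, on a linear scale in arbitrary units, were 82.5 to 103.3 in control pools and 74.1 to 78.9 in the exposed pools. The groups also differed in a measure of RNA labelling. For the poly-A spike transcripts added to each sample, the ratio of 3' to middle signal was 2.07 to 2.52 in control pools and 6.56, 3.47 and 7.00 in exposed replicates 1, 2 and 3. For actin, a transcript of the embryos' own RNA, the ratio of 3' to 5' signal was 1.71, 1.76 and 2.19 in control replicates 1, 2 and 3. It was 10.1, 3.09 and 10.3 in exposed replicates 1, 2 and 3. The part of these ratios in the changes below was not tested directly, and a fit with the spike ratio as a covariate is given after them. Of markers of cell types, 5 of 9 tested neuronal and 5 of 7 neural progenitor genes fell and 1 of each rose, while all 6 cardiomyocyte genes rose. Of all genes tested on the array, 19.9% fell and 17.6% rose. Of 3 tested genes of embryonic erythroid cells, 0 fell and 0 rose. The summed signal of the neuronal genes was 21150 to 24630 in control pools and 17860 to 19250 in the exposed pools, and that of the progenitor genes was 17570 to 18380 and 13000 to 15570. For endothelium, 2 of 7 genes fell and 1 rose, and the sums overlapped at 3863 to 3894 and 3081 to 4156. For mesenchyme and somites, 2 of 6 fell and 1 rose, with sums of 11840 to 12950 and 9646 to 10270. Of 6 listed genes of decidua and placenta only Prl8a2, a decidual hormone, was tested, with a signal of 5699 to 6522 in control pools and 30.7 to 39.3 in the exposed pools. Once the spike ratio entered the fit, Stmn2, a neuronal marker that had fallen, came to -0.03 on the log2 scale. Pax6, of the progenitors, and Pecam1, of endothelium, turned to 0.10 and 0.50. The other markers that had fallen stayed below 0, and those that had risen stayed above 0. The part of these cell types in the changes of the guidance genes was not tested.

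Most of the guidance genes that changed were lower in the diabetes-exposed embryos, and they included ligands and receptors of each of the 4 systems. Probe sets whose mean signal (geometric, over the 6 arrays) was under 26.7, the dimmest on the array, were not tested, which left 113 member probe sets for 62 genes, and a gene was read at its brightest one. Of the 62 genes, 31 fell at an adjusted p under 0.05, where 19.9% of all 13956 genes tested fell, and 6 rose, where 17.6% of all genes rose (limma, Benjamini-Hochberg adjustment over 30025 probe sets). At least 2-fold decreases were found for 20 guidance genes, beside 6.01% of all genes. The median log2 fold change, exposed minus control, was -0.53 over the guidance genes and 0 over all genes. Control and exposed signals did not overlap in 46 of the 62 genes, and in 52.3% of all genes. Both ligands and receptors were among them: 17 of 35 ligands fell and 3 rose, with a median of -0.55, and 14 of 27 receptors fell and 3 rose, with a median of -0.48. The genes of Epha6, Epha8 and Epha10 were too dim to be tested; 29 member probe sets in all were left out, none of them with a signal above 159.8. The brightness filter let pass 13 member probe sets with an exposed mean under its limit and 0 with a control mean under it, so that the counts over tested members are descriptions only. With each array centred on its median, which moved the median of all genes by 0.32, 24 guidance genes fell, beside 9.44% of all genes, and 11 rose, beside 34.8%. With quantile normalization 24 fell, beside 15.4%, and 9 rose, beside 24.2%.

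**Figure D1:**
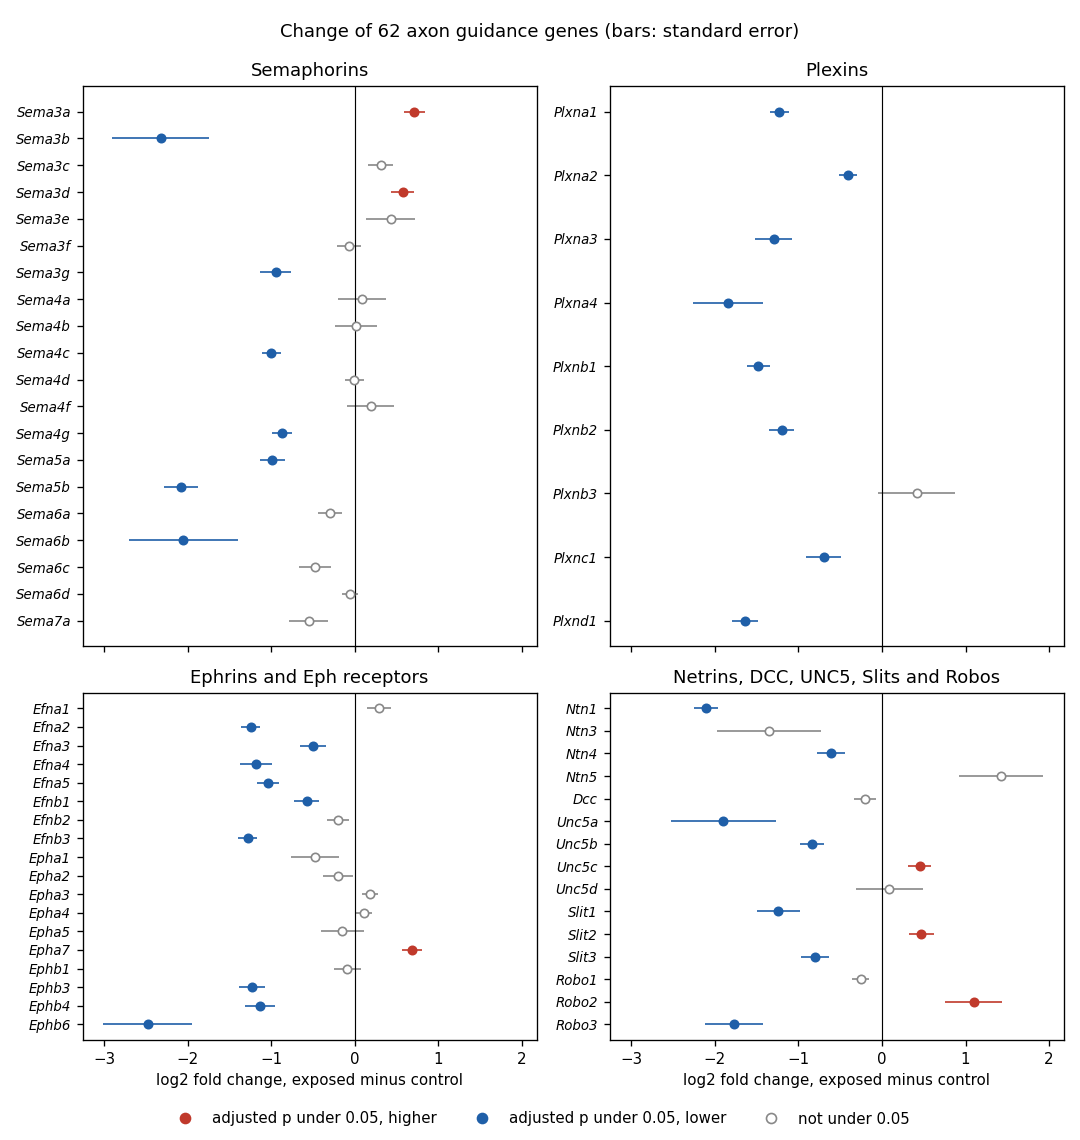
Log2 fold change (horizontal axis, exposed minus control, 3 pools each) of 62 axon guidance genes in 4 panels, with bars for the standard error; filled blue points fell, filled red points rose, and open points did not pass the test. The points lie mostly left of 0, with all 4 A plexins and 3 of 4 B-type Eph receptors filled blue and the A-type Eph receptors clustered around 0.

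The study searched the upstream regions of changed genes for sites of hypoxia and stress factors. It used longer regions and only sites conserved between mouse and human. For the guidance genes, short motifs were matched by their letters in short windows, without regard to conservation. The shares below are therefore no counterpart of those in the study. Promoter windows of 300 bases, from 250 before to 50 after the transcription start (RefSeq, GRCm38.p6), were found for 55 of the 65 genes, with 71 windows in all. Those of Plxnd1 at chr6:115994956-115995255 (minus strand) and Efna2 at chr10:80179232-80179531 (plus strand) are shown because both genes also passed the test with any single pool left out and with a covariate for the spike ratio, and that of Sema3a at chr5:13396534-13396833 (plus strand) because it rose at its brightest probe set. Ntn1, which also passed in both of these ways, is not shown, so the windows were not picked by that rule alone. Capitals mark the core of the hypoxia response element, ACGTG or GCGTG, read on either strand.
Plxnd1: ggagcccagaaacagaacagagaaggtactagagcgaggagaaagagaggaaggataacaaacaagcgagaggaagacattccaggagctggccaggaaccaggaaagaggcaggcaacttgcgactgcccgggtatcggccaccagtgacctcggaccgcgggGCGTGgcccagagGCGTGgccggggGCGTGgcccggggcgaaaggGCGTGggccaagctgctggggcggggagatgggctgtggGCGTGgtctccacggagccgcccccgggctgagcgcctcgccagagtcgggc
Efna2: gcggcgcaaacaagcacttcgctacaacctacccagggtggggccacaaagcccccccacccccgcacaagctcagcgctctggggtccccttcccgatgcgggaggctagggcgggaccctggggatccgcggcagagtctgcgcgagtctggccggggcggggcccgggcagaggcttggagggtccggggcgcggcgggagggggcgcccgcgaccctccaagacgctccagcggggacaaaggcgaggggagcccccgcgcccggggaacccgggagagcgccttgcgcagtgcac
Sema3a: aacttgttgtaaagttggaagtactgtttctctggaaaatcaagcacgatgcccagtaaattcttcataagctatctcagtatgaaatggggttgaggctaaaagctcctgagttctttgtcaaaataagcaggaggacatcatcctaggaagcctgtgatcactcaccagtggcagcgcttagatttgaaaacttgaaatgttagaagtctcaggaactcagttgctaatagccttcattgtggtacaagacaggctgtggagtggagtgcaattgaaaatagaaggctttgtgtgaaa

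The Plxnd1 window held 5 of these cores, whereas those of Efna2 and Sema3a held 0. The core was found in 17 of 29 windows of genes that fell (58.6%), in 1 of 9 windows of genes that rose (11.1%), in 14 of 30 windows of genes that did neither (46.7%), and in 43.8% of the 32851 windows of all genes. The windows of the genes that fell were also richer in G and C, with a median of 69.0% beside 65.0% for those that rose and 52.7% for all windows. Of those shown, the share of G and C was 67.0% in Plxnd1, 74.7% in Efna2 and 41.3% in Sema3a. The FOXO motif GTAAACA was in 0 of 71 guidance windows and in 3.65% of all windows, and the antioxidant response motif TGACNNNGC was in 9 (12.7%) and in 12.4% of all. Both strands were searched, several windows of 1 gene can overlap, and a match describes letters and not binding.

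Among the ephrins, ligands of both subclasses fell. Efna2, which is held to the membrane by a lipid anchor, had signals of 2624, 2248 and 2326 in control pools and 1034, 881 and 1124 in the exposed pools. All 3 exposed values were under every control value, a log2 fold change of -1.25 ± 0.12 (SE, adjusted p = 0.00033). Efnb3, a transmembrane ephrin of the ventral midline of the neural tube, had 1004, 1041 and 970 in control pools and 434, 438 and 369 in the exposed pools. The exposed pools were again well separated from the controls, and the log2 fold change was -1.28 ± 0.11 (adjusted p = 0.00027). Efna5, a repellent for retinal and motor axons, fell from 1188 ± 61.8 (SD, n = 3) to 583 ± 99.8, and Efna4 fell from 696 ± 113 to 310 ± 77.6 (adjusted p = 0.001 and 0.0026). Efnb1, which marks tissue borders in the face and skeleton, fell by 0.58 on the log2 scale (adjusted p = 0.018). Efnb2, the ephrin of arteries and of the posterior part of each somite, had 1939, 2337 and 2685 in control pools and 2129, 1801 and 2104 in the exposed pools at its brightest probe set. These ranges overlapped, and the difference of -0.20 ± 0.13 did not pass the test (adjusted p = 0.28). In sum 4 of 5 A ephrins and 2 of 3 B ephrins fell, with medians of -1.04 and -0.58.

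The Eph receptors were divided by subclass. Of the 6 tested A receptors, read at their brightest probe sets, 1 rose and 0 fell (median -0.02, or 0.30 after median centring, with 3 higher), and of the 4 B receptors 3 fell and 0 rose (median -1.18). Over all 16 tested probe sets of the A receptors 4 fell and 1 rose, with a median of -0.33, while each B receptor had 1 probe set. Epha7, a receptor of the developing hindbrain and spinal cord, had 1782, 1826 and 2105 in control pools and 3026, 2676 and 3495 in the exposed pools. No exposed pool reached down to the controls, and the log2 fold change was 0.68 ± 0.12 (adjusted p = 0.003). Epha3, expressed in motor columns and in the heart cushions, had 1597, 1873 and 1787 in control pools and 2157, 1924 and 1886 in the exposed pools. The exposed values lay just above the controls, and the difference of 0.18 ± 0.10 did not pass the test (adjusted p = 0.18).

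Ephb4, the venous partner of Efnb2, had 1124, 863 and 814 in control pools and 477, 470 and 334 in the exposed pools. The log2 fold change was -1.13 ± 0.18 (adjusted p = 0.0021), and every exposed pool was below every control. Of the 7 endothelial markers, Tie1 and Pecam1 fell by 1.41 and 1.02 on the log2 scale and Cdh5 rose by 0.72. The differences of Emcn, Kdr, Tek and Cldn5 were -0.40, -0.34, 0.07 and 0.18 and did not pass the test. Their part in the change of Ephb4 was not tested. Ephb3 fell from 708 ± 70.5 to 304 ± 49.7 (adjusted p = 0.00091). Ephb6, a receptor without kinase activity, had 201, 186 and 177 in the control pools against 12.9, 61.6 and 48.1, and its change of -2.48 ± 0.53 had the widest error of the subclass (adjusted p = 0.0075). The difference between A and B receptors itself was not tested.

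In the semaphorins, read at their brightest probe sets, class 3 differed in its members' direction, while classes 4 to 6 changed only downwards. Of the 7 class 3 genes 2 rose and 2 fell, with a median of 0.31. Over their 13 tested probe sets 3 rose and 6 fell, with a median of -0.91. Class 3 semaphorins are secreted and act through neuropilins and A plexins. Sema3a, a repellent of sensory and motor axons and of neural crest cells, had 656, 716 and 758 in control pools and 1301, 990 and 1213 in the exposed pools at its brightest probe set. The exposed pools were all higher, with a log2 fold change of 0.71 ± 0.13 (adjusted p = 0.0034). Sema3d, which helps to pattern the pulmonary veins, had 324, 377 and 351 in control pools and 595, 493 and 481 in the exposed pools. The separation was complete, at 0.57 ± 0.14 (adjusted p = 0.011). Sema3c, needed for division of the outflow tract, had 1039, 858 and 1166 against 1264, 1453 and 1075, which overlapped (0.31 ± 0.15, adjusted p = 0.14). Sema3e, the ligand of Plxnd1, overlapped as well at its brightest probe set, with 82.0, 109 and 147 in control pools and 110, 152 and 191 in the exposed pools (0.43 ± 0.29, adjusted p = 0.29). Sema3g and Sema3b fell, Sema3g from 205 ± 22.8 to 106 ± 4.86 and Sema3b from 70.7 ± 1.07 to 17.3 ± 14.2 (adjusted p = 0.005 and 0.015). The exposed level of Sema3b was under the brightness limit, and taken against that limit it was at least 2.45-fold lower. Sema3f differed by -0.08 at its brightest probe set (adjusted p = 0.72) but fell at its 2 other tested ones (both adjusted p = 0.0012). The change was -2.31 at 1 of them. The other had an exposed level under the limit and was at least 6.4-fold lower.

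The remaining semaphorins are bound to the membrane. Of class 4, Sema4c fell from 675 ± 31.8 to 338 ± 22.3 and Sema4g from 618 ± 50.3 to 338 ± 18.6 (adjusted p = 0.00073 and 0.0013). The other 4 did not pass the test at their brightest probe sets. Over the 8 tested probe sets of class 4, 4 fell and 0 rose. A dimmer one of Sema4f fell, at -1.525 (adjusted p = 0.0086). So did 1 of Sema4a, at least 1.92-fold lower against the brightness limit (adjusted p = 0.049). Sema4d, a ligand of B plexins, had 533, 493 and 492 in control pools and 538, 476 and 498 in the exposed pools, a difference of -0.01 with a 95% interval from -0.27 to 0.25. Both members of class 5, which carry thrombospondin repeats, fell. Sema5b had 436, 428 and 342 in control pools and 75.5, 106 and 106 in the exposed pools. This was a wide gap of -2.08 ± 0.20 on the log2 scale (adjusted p = 0.00038). Sema5a fell from 529 ± 17.5 to 269 ± 44.6 (adjusted p = 0.0017). Of class 6, whose members serve as ligands of A plexins, Sema6d had 1472, 1626 and 1741 against 1507, 1615 and 1520 at its brightest probe set. These overlapped, with a difference of -0.06 (95% interval -0.27 to 0.16). Another probe set of Sema6d read 191.6, 212.4 and 126.3 in control pools and 34.7, 26.7 and 34.9 in the exposed pools. It fell, with a change of -2.44 ± 0.30 (adjusted p = 0.00091), and the remaining tested one, at -0.41, did not pass (adjusted p = 0.52). Sema6b fell from 69.3 ± 53.0 to 14.2 ± 5.25 (adjusted p = 0.037), with control signals that ranged from 26.8 to 128.7 and an exposed level under the brightness limit, against which it was at least 2.12-fold lower. Sema7a, a lipid-anchored member, differed by -0.55 ± 0.23 and did not pass the test (adjusted p = 0.097).

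The plexins, the receptors of semaphorins, fell nearly throughout: all 4 A plexins, 2 of 3 B plexins, Plxnc1 and Plxnd1 fell, and 0 rose. Plxnd1, the endothelial receptor that keeps vessels out of the somites, had 1324, 1204 and 1094 in control pools and 484, 350 and 338 in the exposed pools. The lowest control pool was far above the highest exposed pool, and the log2 fold change was -1.64 ± 0.16 (adjusted p = 0.00036). Plxna1 had 1271, 1240 and 1043 in control pools and 480, 514 and 515 in the exposed pools, and these did not overlap either (-1.23 ± 0.11, adjusted p = 0.00032). Plxnb1, a Sema4d receptor, had 914, 1034 and 860 against 346, 380 and 287. The exposed pools again were all lower, by -1.48 ± 0.14 on the log2 scale (adjusted p = 0.00036), beside a ligand whose signal differed by less than its error. Plxnb2, needed for closure of the neural tube, fell from 2141 ± 444 to 919 ± 63.7 (adjusted p = 0.00098), Plxna3 from 674 ± 102 to 280 ± 75.5 (adjusted p = 0.0028) and Plxna4 from 179 ± 76.8 to 48.2 ± 18.9 (adjusted p = 0.01).

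Ntn1 had the smallest adjusted p of all the guidance genes. This netrin is made by the floor plate and attracts commissural axons to the midline. Its signals were 1843, 1823 and 1457 in control pools and 438, 426 and 330 in the exposed pools. The exposed pools clustered far below the controls, a 4.30-fold lower level (log2 fold change -2.11 ± 0.15, adjusted p = 0.00018). Of its receptors, Dcc, which mediates attraction, had 904, 882 and 749 in control pools and 843, 639 and 726 in the exposed pools. These overlapped, and the difference was -0.20 ± 0.13 (adjusted p = 0.27) at this probe set, the brightest of Dcc. A dimmer one read 223.6, 186.9 and 134.5 in control pools and 107.3, 115.9 and 58.3 in the exposed pools. It fell, with a log2 fold change of -0.985 (adjusted p = 0.039). The remaining one, at -0.62, did not pass the test (adjusted p = 0.11). The UNC5 receptors, which mediate repulsion, were divided. Unc5b, the endothelial member, had 656, 633 and 544 in control pools and 396, 297 and 336 in the exposed pools. It fell by 0.84 on the log2 scale (adjusted p = 0.0031), with no overlap between the groups. Unc5c had 617, 742 and 705 in the control pools against 1056, 800 and 973, higher in each exposed pool (0.45 ± 0.13, adjusted p = 0.029). Unc5a fell from 136 ± 23.2 to 47.0 ± 32.8 (adjusted p = 0.043). Ntn4, a netrin of basement membranes, fell by 0.61 on the log2 scale (adjusted p = 0.019).

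In the Slit and Robo system both ligands and receptors went both ways. Slit2, a midline repellent, had 1255, 1232 and 1719 in control pools and 1838, 1726 and 2241 in the exposed pools. The highest control and the lowest exposed pool were almost level, and the log2 fold change was 0.47 ± 0.15 (adjusted p = 0.04). Slit1 and Slit3 fell, Slit1 from 234 ± 75.0 to 96.4 ± 11.3 (adjusted p = 0.0061) and Slit3 from 234 ± 18.3 to 134 ± 11.8 (adjusted p = 0.0073). Robo3, which silences repulsion while commissural axons approach the midline, had 179, 291 and 174 in control pools and 97.0, 51.1 and 45.8 in the exposed pools. It was lower in each exposed pool, by -1.77 ± 0.34 on the log2 scale (adjusted p = 0.0048). Robo2 had 109, 125 and 52.2 against 244, 160 and 176, higher in each exposed pool and with a spread in the controls (1.10 ± 0.34, adjusted p = 0.036). Robo1 had 1646, 1596 and 1616 in control pools and 1553, 1258 and 1279 in the exposed pools, which did not overlap, but the difference of -0.26 ± 0.10 did not pass the test (adjusted p = 0.09). Among the genes named so far that did not pass the test, median centring turned the sign of 5, to 0.06 for Robo1, 0.11 for Dcc, 0.12 for Efnb2, 0.26 for Sema6d and 0.31 for Sema4d on the log2 scale. Median centring also ended the calls of 7 genes that had fallen. The adjusted p was 0.054 for Slit3, 0.053 for Sema6b, 0.17 for Plxnc1, 0.19 for Ntn4, 0.2 for Efnb1, 0.41 for Efna3 and 0.63 for Plxna2, and none of the 7 passed with quantile normalization either. It added 5 that rose, Sema3c at 0.63 (adjusted p = 0.011), Epha3 at 0.50, Epha4 at 0.43, Efna1 at 0.61 and Ntn5 at 1.74. All 5 were read at their brightest probe set. In the same fit other probe sets fell, at -3.22 for Epha3, -1.31 for Epha4 and -1.39 for Efna1. The adjusted p was 0.0014, 0.0038 and 0.045. A further one of Epha3, with an exposed level under the brightness limit, fell as well (adjusted p = 0.0091). The remaining tested probe sets of the 5 genes did not pass.

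**Figure D2:**
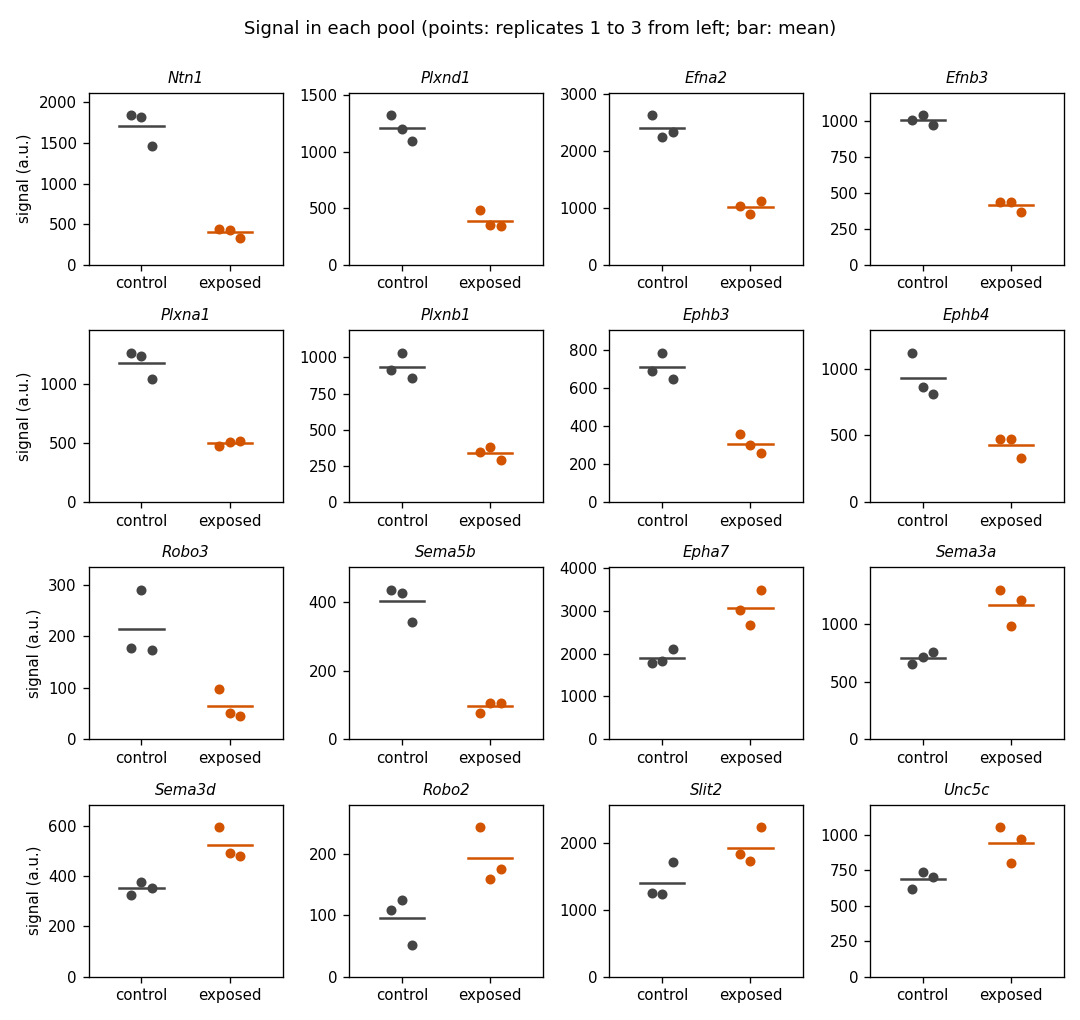
Signal (vertical axis, linear, arbitrary units, starting at 0) of 16 guidance genes in each control and exposed pool, with points for replicates 1 to 3 from left to right and bars for the means. In the first 10 panels the exposed pools lie below all control pools, as for Ntn1 with 330 to 438 beside 1457 to 1843; in the last 6 they lie above, by the smallest gap in Slit2.

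Of the 31 genes that fell, 23 also passed the test without any single pool, whichever was left out, and of the 6 that rose, 2 did so, Epha7 and Sema3a. Among those that rose, Sema3d reached an adjusted p of 0.05 without control replicate 1, Slit2 and Unc5c reached 0.14 and 0.11 without control replicate 1, and Robo2 reached 0.13 without exposed replicate 1. Among those that fell and are named above, the highest adjusted p was 0.074 for Efnb1 and 0.058 for Sema3b (both without control replicate 2), and 0.081 for Ntn4, 0.12 for Unc5a and 0.18 for Sema6b (without control replicate 1). Plxnc1 reached 0.1 without control replicate 1. Efna3 and Plxna2, which had adjusted p-values of 0.03 and 0.017, were the other 2, at 0.097 without control replicate 2 and 0.054 without exposed replicate 3. Control replicate 3 was the lowest control in 71 of the 113 member probe sets (62.8%, beside 42.3% of all tested probe sets).

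A gene with several probe sets is read at several stretches of its transcript, and in the guidance genes these often differed in their change. Counted by probe set, 59 of the 113 fell, beside 21.8% of all 30025, and 7 rose, beside 14.4%, with a median log2 fold change of -0.80, lower than that of the brightest probe sets. Of the 31 guidance genes with at least 2 tested probe sets, 19 had changes that lay more than 1 log2 unit apart (61.3%, beside 39.5% of all 6515 such genes). Efnb2 had 4 tested probe sets. One of them read 1372, 1398 and 1309 in control pools and 342, 651 and 280 in the exposed pools, a change of -1.78 ± 0.27 (adjusted p = 0.0018), and another read 245, 233 and 181 against 3.7, 5.5 and 3.0 (adjusted p = 0.0002), whereas the other 2, the brightest among them, did not pass the test. Since 3.7, 5.5 and 3.0 lie under the brightness limit of 26.7, the lower level is only a bound: with exposed signals set to no less than that limit it was at least 8.16-fold lower. For Epha3, 2 of 4 probe sets fell, and the brightest pair did not pass the test at 0.18 and -0.18 on the log2 scale. One of those that fell read 635, 759 and 355 in control pools and 26.8, 157 and 26.1 in the exposed pools (-3.53 ± 0.65, adjusted p = 0.0038). The other had an exposed level under the limit and was at least 4.02-fold lower (adjusted p = 0.011).

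Probe sets of 1 gene that rose and fell were found in 5 of the 31 genes (16.1%, beside 8.58% of all). In Sema3a the second probe set had 543, 562 and 376 in control pools and 146, 329 and 223 in the exposed pools, a change of -1.14 ± 0.29 (adjusted p = 0.015) against the increase at the brightest one. In Epha7 another probe set had 376, 349 and 240 against 72.7, 83.1 and 79.1, a change of -2.01 ± 0.22 (adjusted p = 0.00059). Slit2 fell at 1 probe set by 1.02 (adjusted p = 0.0087) and Unc5c by 0.51 (adjusted p = 0.026) on the log2 scale. Sema3e rose by 0.70 (adjusted p = 0.027) at 1 probe set and fell at another, by at least 2.31-fold against the brightness limit (adjusted p = 0.0098). When all probe sets of each gene were averaged instead, 37 guidance genes fell, beside 25.2% of all genes, and 3 rose, beside 13.5%, and the median was -0.96, beside -0.10 over all genes. Epha3 then passed as lower (adjusted p = 0.0017). Dcc passed as lower too, at -0.60 (adjusted p = 0.024). It was 1 of 3 genes, named by the rule given with the processing, that passed only in this reading and in the direction they had before.

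A test of the brightest against the next probe set, chosen after these values were seen, found a different change in 10 of the 31 genes, beside 18.2% of all genes. In 9 of these 10 the brightest had the higher log2 fold change, as in 78.8% of the 1187 genes of the array that differed. The brightest was higher by 2.38 ± 0.29 in Sema6d (adjusted p = 0.025), 2.24 ± 0.46 in Sema3f, 1.85 ± 0.43 in Sema3a, 1.58 ± 0.40 in Efnb2 and 0.96 ± 0.20 in Unc5c, and also in Epha4, Sema4f, Sema6a and Plxna3. Ntn1 differed the other way, by -1.88 ± 0.31 (adjusted p = 0.028), with a second probe set of 52.3, 36.1 and 33.6 in control pools and 45.0, 23.9 and 37.3 in the exposed pools. Brightness was ordered over all 6 arrays, which favours probe sets that did not fall; ordered by the control pools alone, the count was 10 as well, 8 of them with the brightest higher. The count was 5 without control replicate 3 and 14 without exposed replicate 2. It was 0 (13 to 16 at an unadjusted p under 0.05) without control replicate 1, control replicate 2, exposed replicate 1 or exposed replicate 3. It was also 0 (5 unadjusted) with the spike ratio as a covariate, where the median difference over the 31 genes was 0.11 in place of 0.37, beside 0.01 in place of 0.23 over all genes.

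**Figure D3:**
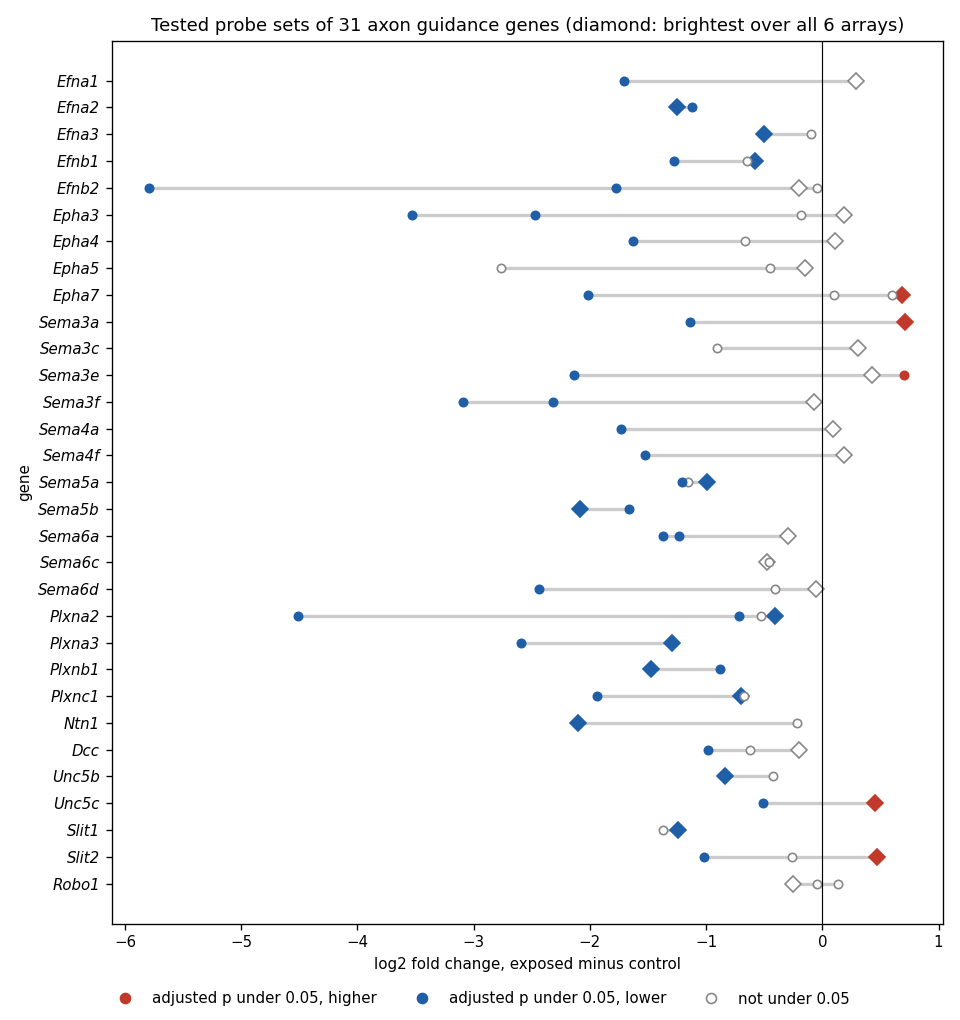
Log2 fold change (horizontal axis, exposed minus control) of every tested probe set of 31 guidance genes (rows), with diamonds for the brightest probe set of a gene and circles for the others; blue fell, red rose, open did not pass the test, and the grey bar spans a gene's range. Diamonds lie at the right end of the bar in 20 of the 31 genes (64.5%, beside 52.7% of all genes), as in Sema3a; values of probe sets whose exposed level was under the brightness limit, such as the leftmost point of Efnb2, are drawn as fitted.

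A covariate for the spike ratio left the median of the guidance genes at -0.52, close to the -0.53 without it, but few single genes passed the test. The ratio of 3' to middle signal did not overlap between the groups, at 2.07 to 2.52 in control pools and 3.47 to 7.00 in exposed pools. With 6 arrays this fit therefore cannot separate the ratio from the exposure, and its values are descriptions only. In that fit 3 guidance genes fell, beside 1.73% of all genes, and 0 rose (0 at an unadjusted p under 0.05), beside 0.0788% of all genes. The 3 were Ntn1, at -1.75 (adjusted p = 0.031), Efna2, at -1.60 (adjusted p = 0.015), and Plxnd1, at -1.78 (adjusted p = 0.042). Of the 31 genes that had fallen, 30 were below 0 on the log2 scale in this fit, the exception being Unc5a at 0.44. Epha7 and Sema3a came to 0.24 and 0.25 (adjusted p = 0.56 and 0.61), and Slit2 and Unc5c to 0.00 and 0.03. Robo2 and Sema3d came to 1.08 and 0.46 (adjusted p = 0.56 and 0.51), near their values without the covariate. When exposed replicates 1 and 3, with the highest spike ratios, were left out together, which leaves 1 exposed pool whose spread is taken to be that of the controls, 23 of the 31 passed the test, and of the 6 that had risen only Epha7 did. In that fit 11.5% of all genes fell and 6.43% rose. Since exposed replicate 2 had also entered the fit that called these genes, it is no independent reading of their direction.

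**Figure D4:**
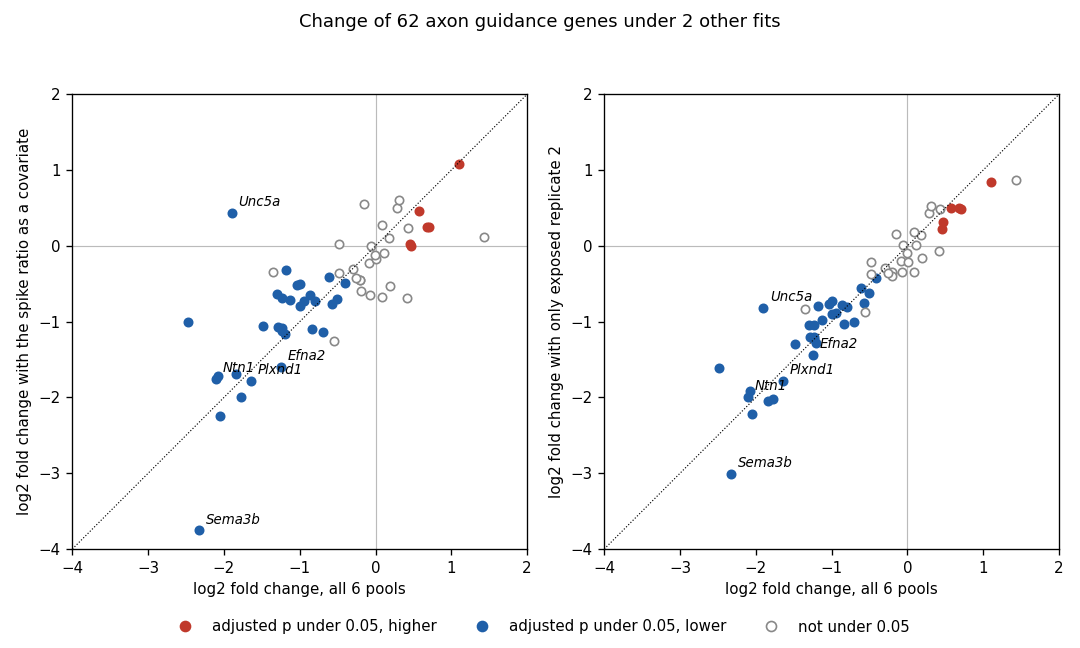
Log2 fold change of 62 guidance genes with all 6 pools (horizontal axes) against that with the spike ratio as a covariate (left, vertical axis) and with only exposed replicate 2 (right, vertical axis); colours give the call with all pools and the dotted line equal values. On the left the points scatter around the line, and Unc5a lies above 0; on the right both axes share exposed replicate 2 and the controls.

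Other genes of the guidance pathway were described from a list of 107 co-receptors, further cues, adaptors and cytoskeletal effectors, of which 98 were tested. Of these 47 fell and 15 rose, beside 19.9% and 17.6% of all genes, and the median log2 change was -0.42. With median centring 22 fell and 25 rose, beside 9.44% and 34.8% of all genes. Among the co-receptors of the class 3 semaphorins, Nrp1 rose by 0.36 (adjusted p = 0.022) and Nrp2 fell by 0.54 (adjusted p = 0.0096) on the log2 scale. With the spike ratio as a covariate Nrp1 came to 0.017 and Nrp2 to -0.425, and neither passed (adjusted p = 0.97 and 0.48). The most significant decreases were in Map1b, a microtubule protein of growing axons, at -3.50 ± 0.20 (adjusted p = 0.00013), Ptprf, a receptor tyrosine phosphatase, at -1.47 ± 0.10 (adjusted p = 0.00015), and Trio, a guanine nucleotide exchange factor, at -1.20 ± 0.10 (adjusted p = 0.0002). These 3 also passed with the spike ratio as a covariate, at -3.72, -1.50 and -1.24. Those that rose were led by Flrt3, a ligand of UNC5 receptors, at 0.72 ± 0.08 (adjusted p = 0.00073), Dock4, a Rac activator, at 1.71 ± 0.31 (adjusted p = 0.0037), and Cdc42, a small GTPase, at 0.48 ± 0.09 (adjusted p = 0.0046). With the covariate these came to 0.54, 0.27 and 0.16 and did not pass (adjusted p = 0.11, 0.8 and 0.6). Of 12 further guidance receptors 8 fell and 2 rose, and of 5 collapsin response mediators, which relay semaphorin signals, 4 fell and 0 rose.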

How the data were processed

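Total RNA of whole embryos was labelled by the one-cycle method. The authors deposited 1 linear intensity for each probe set of an array, computed with GCOS and MAS5 and scaled to a common mean (without the highest and lowest 2% of signals, each array averaged 500). Their versions were not stated. Log2 of the signals was fitted with limma 3.58.1 in R 4.3.3 (lmFit, eBayes with a trend) on 3 control and 3 exposed pools, without further scaling, for 30025 probe sets that remained after array controls and the dimmest probe sets (geometric mean under 26.7) were left out. P-values were adjusted over all of them (Benjamini-Hochberg), and "rose" or "fell" means an adjusted p under 0.05. Probe sets were named by GEO's platform annotation, in which 34958 had 1 symbol, 932 several and the others none; no position in a genome was given. Intensity depends on the probes, so levels were not compared between genes. The number of arrays limits the precision.

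For the spike covariate, log2 of middle over 3' signal was averaged over 8 poly-A spike pairs. The members, lists and tests were chosen with earlier results of these data known. Members named were those that changed at least 2-fold, up to 2 that rose and 2 that fell and the brightest in each family, those with probe sets called both ways, and 8 genes of interest; among the pathway genes, the 3 of each direction with the smallest p, Nrp1 and Nrp2. Efna1, Efna3, Ntn5, Plxna2, Epha4, Epha6, Epha8, Epha10, Sema3f, Sema4a, Sema4f, Sema6a and the endothelial markers were named after their values were seen. Alternatives were a pseudocount of 32, cyclic loess and quantile normalization, centring on medians, other brightness filters, other variance models, the replicate number as a block, the spike ratio as a covariate, the methods' t-test, other readings of a gene's probe sets, a minimum change of 2-fold, and leaving pools out. Python 3.11.15 with matplotlib 3.10.9 drew the figures. In 6 simulated arrays of 30025 probe sets, 38 of 100 changed 2-fold and 64 of 100 changed 4-fold were called, with 5 false calls among 107. The simulated errors were independent and of equal spread in both groups, few probe sets were changed, and the groups did not differ in spike ratio. These counts check the code and do not carry over to the measured arrays.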

Additional observations from a re-analysis of the deposited data

How the results depend on the processing

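With 3 arrays a group, precision was limited by their number and, for probe sets near the filter, by signal over background. The genes that fell numbered 31, and 23 to 29 with 1 pool left out. Those that rose numbered 6, and 2 to 7. The median of the guidance genes was -0.53, and -0.56 to -0.50 with 1 pool left out. The other scalings moved it to -0.21 (median centring, with 11 genes higher), -0.23 (quantile) and -0.36 (cyclic loess), beside medians of all genes of 0.32, 0.14 and 0.06. A pseudocount of 32 gave -0.45 and the mean of all probe sets -0.96, with 3 higher. Of the genes that rose, 3 were called without a variance trend, 1 at 2-fold or more, 1 with only exposed replicate 2, 0 with the spike covariate (0 unadjusted) and 0 by the methods' t-test after adjustment (4 unadjusted). Of those that fell, 20 were at 2-fold or more, 3 were called with the spike covariate and 2 by the methods' t-test (26 unadjusted).

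By probe set, 7 rose and 59 fell: 14 rose with median centring, 11 with quantile normalization, 0 (1 unadjusted) with the spike covariate, 1 by the t-test and 1 with only exposed replicate 2, and 2 to 7 with 1 pool left out. The fallen numbered 3, 4 and 39 in the last 3 of these fits, and 42 to 60 with 1 pool left out. The pathway list gave 15 rises and 47 falls: 25 and 22 with median centring, 0 (7 unadjusted) and 7 with the spike covariate, 1 and 6 by the t-test, 5 and 31 with only exposed replicate 2, 6 rises without a variance trend and 6 with the mean of all probe sets. With 1 pool left out it gave 5 to 19 rises and 36 to 48 falls. The alternatives in this paragraph, and those for pairs of probe sets, were chosen after seeing the data.

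When all probe sets of a gene were averaged, Epha3 turned to -1.50, Epha7 to -0.16, Sema3a to -0.22, Slit2 to -0.27 and Unc5c to -0.029. With the spike covariate Slit2 turned to -0.001 and Unc5a to 0.44. The cause was not tested. The replicate numbers did not pair the pools: the correlations of same-numbered pools' deviations were 0, 0.08 and 0.12, and the replicate block left the counts at 6 higher and 31 lower and all 44 named genes at their calls, while genes with differing probe sets went from 10 to 6. That count was 0 with the spike covariate or only exposed replicate 2 (9 unadjusted) and 0 to 14 with 1 pool left out.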
